A study of Mus musculus with 12 samples.

Results

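The insulin-like growth factor (IGF) ligand Igf1, its receptor Igf1r and the IGF binding proteins Igfbp2, Igfbp3, Igfbp4, Igfbp5 and Igfbp7 were followed in mouse male germ cells and in their counterparts made in culture. They are 7 genes with 23 probe sets, out of 45101 probe sets on the array, taken as every probe set annotated to 1 of these symbols alone. The genes were selected on their signal across the 4 groups described here, so their levels and differences are a description and carry no test. All 7 genes were represented among the 14197 genes compared, through the 22 probe sets that passed a filter on dim signal. A gene could pass through the group in which it was bright.

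Total RNA from cells collected by FACS was hybridised to Affymetrix 3′ arrays, with 3 arrays labelled as biological replicates in each group. Spermatid-like cells (SLC) were made in vitro and were set against round spermatids (RS), the haploid cells that follow meiosis, from the testis of BDF1 mice at 3 weeks. Primordial germ cell-like cells (PGCLC) were taken at day 6 of in vitro differentiation and were set against primordial germ cells (PGC), the embryonic founders of the germline, from the genital ridge of male BDF1 embryos at E12.5. The labels name neither the sorting gate nor the stem cell line, culture medium or companion cells behind SLC and PGCLC, nor any genotype or pooling of animals.

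The groups were checked against landmark genes. The signals of 6 spermatid genes, among them the protamine Prm1 and the transition protein Tnp2, summed to between 100263 and 105337 on SLC arrays and between 129615 and 138748 on RS arrays, against at most 153 on PGCLC arrays and 143 on PGC arrays. The signals of 6 PGC genes summed to 23109, 54128 and 41521 on the 3 PGCLC arrays, against 59654 to 63039 on PGC arrays. Arrays correlated within their group at r of 0.984 to 0.987 in SLC, 0.977 to 0.984 in RS, 0.914 to 0.976 in PGCLC and 0.986 to 0.988 in PGC, so PGCLC was the most uneven group. The median signal of an array lay between 73.2 and 107 intensity units. The 3′ over 5′ signal of control probes is a sign of RNA integrity. For Gapdh it was -0.56 to -0.43 on the log2 scale on SLC arrays and -0.01 to 0.20 on RS arrays. It was -0.37 to -0.29 on PGCLC arrays and -0.43 to -0.36 on PGC arrays, so RS stood apart by this control. By the Actb control RS did not stand apart. That signal was 0.46 to 0.49 on RS arrays and 0.33 to 0.60 on SLC arrays. It was 0.37 to 0.63 on PGCLC arrays and 0.47 to 0.70 on PGC arrays. The part of RNA integrity in the differences between RS and the other groups was not tested.

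IGF1 and IGF2 are secreted peptides that bind the receptor tyrosine kinase IGF1R, which signals through insulin receptor substrates to the PI3K and AKT kinases and to the MAPK cascade. Binding proteins in the extracellular fluid hold the ligands, prolong their life and limit or direct their access to the receptor, and proteases that cut the binding proteins release the ligand again. In the testis, IGF1 is known as a product of somatic cells, Leydig cells among them, and the system is known for its part in Sertoli cell number and steroid output.

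Among the 5 binding proteins, Igfbp2 and Igfbp5 are neighbours. In GRCm38.p6, Igfbp2 (chr1:72824480-72852474, plus strand) and Igfbp5 (chr1:72858065-72874865, minus strand) lie tail to tail with 5590 bases and 0 other annotated genes between them. Igfbp3 lies on chr11:7206086-7215498 (minus strand), Igfbp4 on chr11:99040005-99052655 (plus strand) and Igfbp7 on chr5:77349240-77408045 (minus strand). Igf1 lies on chr10:87858265-87937047 and Igf1r on chr7:67952257-68233668, both on the plus strand.

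The 120 bases before the annotated start, from RefSeq on GRCm38.p6, are shown 5′ to 3′ on the coding strand for the 3 binding proteins whose listed start is the end of the gene itself. Capitals mark the TATA-like motif TATTTAA or the GC box GGGCGG, searched on both strands, so that CCGCCC is the GC box read backwards. The windows are chr1:72874866-72874985 for Igfbp5, chr5:77408046-77408165 for Igfbp7 and chr1:72824360-72824479 for Igfbp2.
Igfbp5: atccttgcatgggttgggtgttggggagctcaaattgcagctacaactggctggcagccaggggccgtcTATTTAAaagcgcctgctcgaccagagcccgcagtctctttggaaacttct
Igfbp7: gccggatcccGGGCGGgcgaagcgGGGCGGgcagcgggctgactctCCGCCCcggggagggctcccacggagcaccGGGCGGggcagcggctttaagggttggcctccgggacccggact
Igfbp2: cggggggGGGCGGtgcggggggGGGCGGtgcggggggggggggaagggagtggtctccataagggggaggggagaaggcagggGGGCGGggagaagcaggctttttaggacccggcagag
The Igfbp5 window held 1 TATTTAA, beginning at position -51 from the start, and no GC box. The Igfbp7 window held 4 GC boxes and the Igfbp2 window 3, and neither held TATTTAA. Another TATA-like motif, TATANA with N for any base, was searched too, and none of the 3 windows held it. The Igfbp4 window held 1 match to it, at position -28, and the Igfbp3 window held 2. These windows are not shown because their listed starts are not the end of the gene. So Igfbp5 was not the only binding protein with a TATA-like motif. Of 32851 mouse promoter windows of the same length, 1.805% held TATTTAA, 10.97% held TATANA and 26.48% held GGGCGG. Igfbp5 also had the fewest CpG pairs of the 3, with 4, against 15 for Igfbp7 and 7 for Igfbp2. These matches describe the letters in the windows, and binding was not measured. RefSeq lists a further start for Igfbp2 whose window held none of these motifs.

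Levels are given as the deposited intensity units of the probe set with the highest mean for each gene, and differences as log2 values after raising signals under 30.7 units, the 25th percentile of the table, to that floor. Signals of different probe sets are not comparable with each other, so every comparison is within a probe set. In bulk samples, fewer cells of a type and less RNA per cell cannot be told apart.

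Igf1, the ligand, was high in SLC alone. Its signal was 1397, 1558 and 1463 units on the 3 SLC arrays, against 180, 133 and 120 units on the RS arrays. It was 57.4, 249 and 133 units on the PGCLC arrays and 82.9, 68.1 and 144 units on the PGC arrays. Every SLC array lay far above all the others, while the ranges of PGCLC and PGC, and of RS and PGC, overlapped. On the log2 scale SLC exceeded RS by 3.37, a 10.3-fold difference, and exceeded PGCLC by 3.57. PGCLC minus PGC was 0.41, and it was -0.10 without PGCLC replicate 2, so its sign rested on that array.

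Igf1r, the receptor tyrosine kinase that both IGF peptides bind, was highest in PGCLC and lowest in RS by its brightest probe set. Its signal was 308, 355 and 371 units on SLC arrays, against 53.4, 52.8 and 9.78 units on RS arrays, the last of them at the floor. It was 853, 747 and 845 units on PGCLC arrays, against 522, 425 and 509 units on PGC arrays. The 4 groups followed each other in the order PGCLC, PGC, SLC, RS with no overlap between neighbours. The log2 differences were 2.96 for SLC minus RS (7.77-fold), 0.75 for PGCLC minus PGC, -3.45 for RS minus PGC and -1.24 for SLC minus PGCLC.

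Igfbp2, a binding protein known for high levels in fetal tissues and in undifferentiated cells, set PGCLC apart. Its signal was 10690, 1304 and 6946 units on the PGCLC arrays, against 290, 369 and 351 units on the PGC arrays. It was 390, 386 and 347 units on SLC arrays, against 240.0, 237 and 235 units on RS arrays. Every PGCLC array was above every array of the other groups, but the 3 PGCLC arrays themselves spanned 8.20-fold. PGCLC exceeded PGC by 3.78 on the log2 scale (13.7-fold), or by 3.17 without PGCLC replicate 1 and 4.69 without PGCLC replicate 2. SLC minus PGCLC was -3.62, or -3.01 and -4.53 without these same arrays. SLC minus RS was 0.66, but 0.07 after quantile normalization and 0.01 after centring each array on its median.

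Igfbp3, the main carrier of IGFs in adult serum, was low in RS. Its signal was 206, 196 and 246 units on SLC arrays, against 95.4, 8.50 and 22.6 units on RS arrays, of which 2 lay at the floor. It was 377, 952 and 562 units on PGCLC arrays, against 836, 663 and 916 units on PGC arrays. PGCLC and PGC overlapped, while every SLC array lay above every RS array and below every PGCLC and PGC array. The log2 differences were 2.26 for SLC minus RS, -0.44 for PGCLC minus PGC, -4.15 for RS minus PGC and -1.45 for SLC minus PGCLC.

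Igfbp4, which mostly holds IGFs away from the receptor and is a substrate of the protease PAPP-A, was higher in both cultured groups than in their counterparts. Its signal was 7936, 8515 and 8112 units on SLC arrays, against 422, 421 and 592 units on RS arrays. It was 3204, 2288 and 2825 units on PGCLC arrays, against 958, 849 and 874 units on PGC arrays. No groups overlapped, and the order was SLC, PGCLC, PGC, RS. SLC exceeded RS by 4.12 on the log2 scale (17.3-fold) and PGCLC exceeded PGC by 1.62 (3.08-fold).

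Igfbp5, a binding protein that also attaches to extracellular matrix, showed the widest difference between SLC and RS among the 7 genes on this scale. Its signal was 6591, 8022 and 7931 units on SLC arrays, against 12.2, 4.29 and 34.2 units on RS arrays, of which 2 lay at the floor. It was 902, 1570 and 1065 units on PGCLC arrays, against 459, 434 and 543 units on PGC arrays. The order was again SLC, PGCLC, PGC, RS without overlap, with RS near the bottom of the array's range. SLC minus RS was 7.88 on the log2 scale with the floor at the 25th percentile and 8.96 with the floor at the 10th percentile. PGCLC minus PGC was 1.27 (2.41-fold), RS minus PGC -3.90 and SLC minus PGCLC 2.71 (6.53-fold).

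Igfbp7, a distant relative that binds IGFs weakly and is found in vascular and stromal matrix, stood apart in SLC as Igf1 did. Its signal was 20147, 19860 and 18751 units on SLC arrays, against 492, 537 and 543 units on RS arrays. It was 129, 1357 and 558 units on PGCLC arrays, against 641, 775 and 711 units on PGC arrays. The SLC arrays lay close together and far above all others, while the PGCLC arrays spanned 10.5-fold, on both sides of the PGC arrays. SLC exceeded RS by 5.23 on the log2 scale (37.4-fold) and PGCLC by 5.41, or by 4.49 and 6.19 without PGCLC replicates 1 and 2. PGCLC minus PGC was -0.62 but 0.30 without PGCLC replicate 1 and -1.40 without PGCLC replicate 2. RS minus PGC was -0.43, with a sign that turned to 0.02 after median centring.

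**Figure D1:**
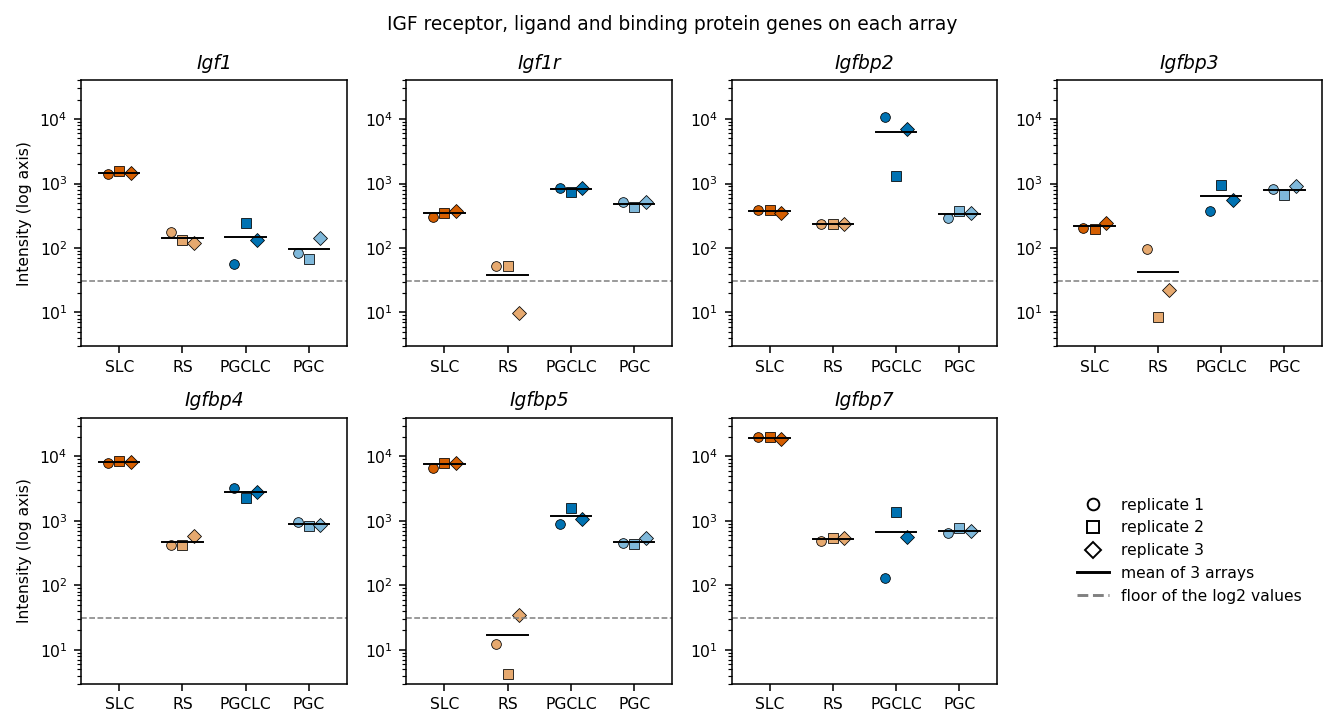
Signal of the 7 genes in intensity units (log axis) on each array, 1 panel per gene, with symbols for the 3 replicates of a group, a bar for their mean and a dashed line for the floor. Igf1 and Igfbp7 are high in SLC alone, Igfbp2 in PGCLC alone, and Igfbp4 and Igfbp5 run in the order SLC, PGCLC, PGC, RS.

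Counted over the 7 genes, SLC was higher than RS beyond 2-fold at an adjusted p under 0.05 in limma for 6, and lower for 0, with Igfbp2 the remaining one. Of all 14197 genes, 24.0% were called higher and 3.44% lower in SLC than in RS. PGCLC was called higher than PGC for 3 genes (Igfbp2, Igfbp4 and Igfbp5) and lower for 0, against 10.4% and 1.62% of all genes. RS was called lower than PGC for 3 genes (Igf1r, Igfbp3 and Igfbp5) and higher for 0, against 37.7% and 31.8% of all genes. SLC was called higher than PGCLC for 4 genes (Igf1, Igfbp4, Igfbp5 and Igfbp7) and lower for 3 (Igf1r, Igfbp2 and Igfbp3), against 29.9% and 27.4%. The genes were chosen on these same signals, so nothing is read from these counts. The median log2 difference over the 7 genes was 3.37 for SLC minus RS, 0.75 for PGCLC minus PGC, -0.92 for RS minus PGC and 1.58 for SLC minus PGCLC, beside -0.15, 0.01, -0.23 and -0.07 over all genes.

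The scaling of the arrays bears on all differences between SLC and RS. With each array centred on its median, the median of all genes for SLC minus RS became -0.79, and 28.7% of the genes called stood higher in SLC, against 87.5% with the deposited scaling and 55.4% after quantile normalization. Of the genes called for PGCLC minus PGC, those higher in PGCLC made up 86.5% with the deposited scaling, 73.6% after quantile normalization and 62.2% after median centring. The median of all genes for RS minus PGC became 0.22 after median centring. Under both scalings the 6 genes called higher in SLC than in RS kept that direction, Igf1 at 2.73 and Igf1r at 2.32 after median centring, Igfbp3 at 1.62, Igfbp4 at 3.47, Igfbp5 at 7.23 and Igfbp7 at 4.58.

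Several probe sets read the same gene, and most gave the same direction. SLC was above RS, by mean log2 signal, for 22 of the 23 probe sets. All 6 of Igfbp4 and all 4 of Igf1 were among them. So were a probe set of Igf1r at 0.07 and one of Igfbp5 at 1.02, both with overlapping groups. Of all genes, each by its brightest probe set, 45.1% were higher in SLC than in RS. The probe sets belong to genes chosen on these same signals, so nothing is read from the count. All 6 probe sets of Igfbp4 placed PGCLC above PGC and RS below PGC, with SLC minus RS between 2.90 and 4.66 in the other 5. RS and PGC overlapped, however, for the probe sets of Igfbp4 with RS minus PGC of -0.26 and -0.29. The second of these was at the floor on all RS arrays and on 2 PGC arrays. The 3 probe sets of Igfbp7 gave SLC minus RS of 5.23, 3.67 and 1.72, the last from the probe set that failed the filter on dim signal. The second probe set of Igfbp3 gave 2.44. Of the 3 further probe sets of Igf1, SLC minus RS was 4.62, 2.12 and 0.56, and the last of these placed RS above PGC by 2.24, where the brightest placed it above by 0.61.

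Igf1, Igf1r and Igfbp5 had probe sets of opposite sign in some comparisons. For Igf1, 3 of the 4 probe sets placed RS above PGC and the remaining one placed it below, at -0.81. For Igf1r, 3 of the 5 probe sets gave SLC minus RS of 2.96, 2.08 and 1.59, while the others gave -0.35 and 0.07 with overlapping groups. PGCLC was above PGC for 2 of the 5, at 0.75 and 0.67, and below it for 3, at -0.09, -0.18 and -1.16. All 5 placed RS below PGC and SLC below PGCLC, the smallest difference of SLC minus PGCLC being -0.04. The mean over its probe sets put SLC minus RS at 1.27 and PGCLC minus PGC at -0.0031. For Igfbp5, the second probe set read 507, 314 and 179 units on SLC arrays, against 368, 24.2 and 304 units on RS arrays. Its groups overlapped, and it gave SLC minus RS of 1.02 where the first gave 7.88. It placed RS above PGC by 0.50, where the first placed RS below. The mean over both gave 4.45 for SLC minus RS and -1.70 for RS minus PGC. Which transcript ends the probe sets detect was not examined.

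**Figure D2:**
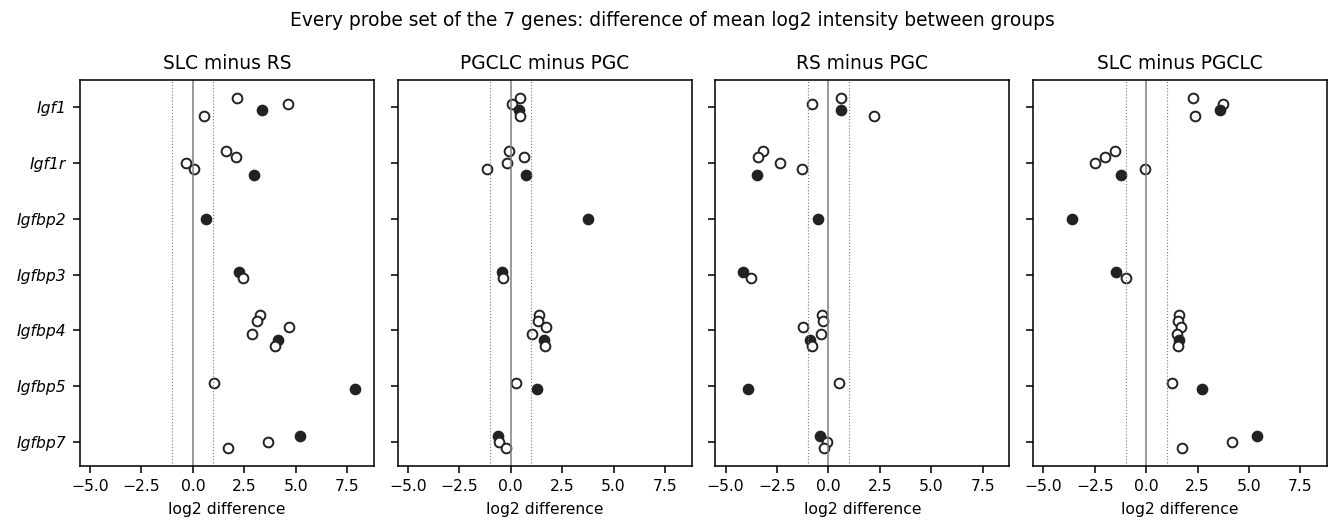
Log2 difference of every probe set of the 7 genes, 1 row per gene and 1 panel for each of the 4 comparisons, with filled points for the brightest probe set of a gene, open points for the others, a line at 0 and dotted lines at 2-fold. For SLC minus RS a single probe set, of Igf1r at -0.35, lies left of 0, and the points of Igfbp5, at 1.02 and 7.88, lie furthest apart.

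The 3 PGCLC arrays did not place the genes alike. PGCLC replicate 1 was the highest of the 3 for Igf1r, Igfbp2 and Igfbp4 and the lowest for the other 4 genes. PGCLC replicate 2 was the highest for those 4 and the lowest for the first 3, and replicate 3 lay between them for all 7. Against the PGC mean, Igfbp2 stood at 4.997, 1.96 and 4.38 on the log2 scale on replicates 1, 2 and 3, and Igfbp7 at -2.45, 0.94 and -0.34. Igf1r, at 0.82, 0.63 and 0.81, and Igfbp4, at 1.84, 1.36 and 1.66, were even. Markers moved over the same arrays. The sum of the 10 measured markers of fetal gonad somatic cells, out of a list of 12, was 1948, 8213 and 4146 units on PGCLC replicates 1, 2 and 3, against 2941 to 3552 units on PGC arrays. The sum of the 6 PGC markers was lowest on replicate 1 and highest on replicate 2, as given with the landmark genes. Dppa3, Prdm1, Ddx4 and Dazl stood in that order. Nanog ran the other way, at 10147, 2985 and 8247 units on replicates 1, 2 and 3. Pou5f1 changed little, at 6064, 6286 and 7054 units. The 4 macrophage markers summed to 1931, 539 and 1391 units on the same 3 arrays, against 227 to 253 units on PGC arrays, and the 5 peritubular myoid markers to 3927, 1625 and 2959 units, against 631 to 832 units, with 3 of each list called higher in PGCLC. Both sums stood in the order of the arrays seen for Igfbp2, while the fetal gonad sum and the PGC marker sum stood in that of Igfbp7. Replicate 3 lay between the others in each of these sums, so a shared order says little. The myoid marker Cnn1 was at the floor on all PGCLC and PGC arrays. None of the fetal gonad markers was at the floor on all PGCLC arrays or on all PGC arrays. Their part in the unevenness of the 7 genes was not tested.

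**Figure D3:**
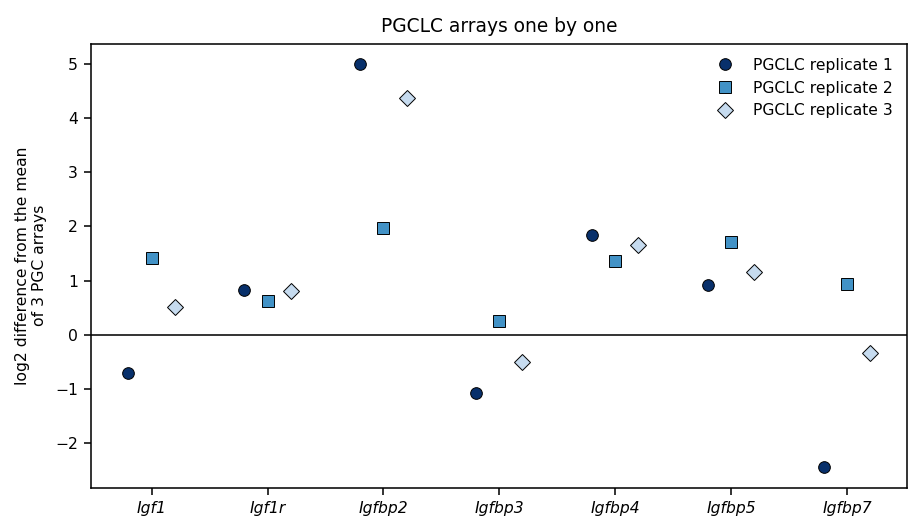
Log2 difference of each PGCLC array from the mean of the 3 PGC arrays, for each of the 7 genes, with 1 symbol per replicate. Replicate 3 lies between replicates 1 and 2 for every gene, and Igfbp7, Igfbp2 and Igf1 are spread the most.

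Markers of other cells of the testis also moved with SLC. The 6 markers of interstitial fibroblasts, all measured and all called higher in SLC than in RS, summed to between 38423 and 38798 units on SLC arrays, against 832 to 925 units on RS arrays. The 5 markers of peritubular myoid cells summed to between 25179 and 26445 units on SLC arrays, against 1590 to 1977 units on RS arrays, with 4 called higher. These lists hold matrix genes such as Col3a1, at 20402 ± 771 units in SLC against 294 ± 37.5 units in RS, and the smooth muscle actin Acta2, at 15545 ± 218 against 1162 ± 136 units (SD, n = 3 each).

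Of 6 Leydig cell markers, the 4 that were measured summed to between 7200 and 7617 units on SLC arrays, against 176 to 245 units on RS arrays. Of these, 3 were called higher in SLC, among them Star, the carrier of cholesterol into mitochondria, and Cyp11a1, the first enzyme of steroid synthesis, which was at the floor on all RS arrays. Cyp17a1, which makes androgen precursors, read 18.6, 20.4 and 62.7 units on SLC arrays, against 146, 100.3 and 80.3 units on RS arrays. The 5 measured Sertoli cell markers of 8 summed to 4053 to 4356 units in SLC, against 656 to 990 units in RS, with 3 called higher. Clu gave most of the SLC sum, at a mean of 3305 units in SLC against 377 units in RS. Rhox5, at 94.6 against 173 units, and Dhh, at 55.9 against 95.0 units, had lower means in SLC. The 4 macrophage markers summed to 903 to 1091 units in SLC, against 581 to 686 units in RS. The 3 measured endothelial markers of 4 summed to 340 to 480 units in SLC, against 296 to 338 units in RS. In each list 1 was called higher, Lyz2 and Cdh5. Csf1r, at a mean of 202 units in SLC against 209 in RS, and Adgre1, at 212 against 246, were not higher in SLC. Neither were Pecam1, at 29.2 against 65.1 units, and Kdr, at 120 against 172 units. The fetal gonad list, which shares genes with these lists, summed to 8658 to 9132 units in SLC, against 1165 to 1193 units in RS, with 8 of 10 called higher and Maf at the floor on all RS arrays. Emx2 of this list had a lower mean in SLC, at 281 against 467 units. The part of all these markers in the SLC levels of the 7 genes was not tested.

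The genes whose pattern over the 12 arrays was most like each member were found as those with the smallest root mean square difference of log2 values centred on the gene's own mean. For Igf1 these were Mylk, a smooth muscle myosin kinase, at 0.30, Calcb at 0.37 and Cavin2 at 0.47, where the median over all genes was 1.89. For Igfbp7 they were Star at 0.48, Dcn, a small matrix proteoglycan, at 0.53 and Inhba, an activin subunit, at 0.56, with a median of 2.50. For Igfbp5 they were Gpx3, Tmem176a and Cebpb at 0.58 to 0.63, with a median of 2.98. For Igfbp4 they were Ncoa7, Vcam1 and Btg2 at 0.31 to 0.33, with a median of 1.83. Igfbp2 was most like Sema3e at 0.34, then Nr2f1 and Ednrb at 0.42 each. Igfbp3 was most like Pkdcc, Cdh3 and Dennd2a at 0.24 to 0.30, and Igf1r most like Magt1, Phyh and Acot13 at 0.20 to 0.26. No member was among the 3 genes nearest to another member. All these likenesses rest on the same 12 arrays in 4 groups. The nearest 3 of all genes lie below the median by the way they were picked, so the median gives only the scale.

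The rest of the IGF system was taken from lists of ligands and receptors, other binding proteins, relatives with an IGF binding domain, proteases with their inhibitors, and the signal relay inside the cell. Of 65 listed genes, 61 had a probe set of their own and 52 passed the filter on dim signal. The lists were chosen with earlier results of these data known, so an excess over the share of all genes is no independent support. In SLC against RS, 33 of the 52 rose and 0 fell by limma, beside the 24.0% and 3.44% of all genes given earlier, and their median log2 difference was 1.98 against -0.15 over all genes. These counts hold for the deposited scaling, and were 30 and 0 after quantile normalization and 28 and 4 after median centring. P-values here measure the spread between the labelled biological replicates, pooled over the 4 groups.

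Among ligands and receptors, 3 of 4 rose in SLC. Ghr, the growth hormone receptor that drives Igf1 in liver, was at 1501 ± 115 units in SLC, against 69.2 ± 48.6 units in RS (SD, n = 3 each), a log2 difference of 4.65 ± 0.39 (SE; limma adjusted p = 9.91e-07). Igf2r, which clears IGF2 into lysosomes, was at 1534 ± 362 units in SLC against 145 ± 54.8 units in RS, a difference of 3.46 ± 0.29 (adjusted p = 1.28e-06). Insr, the insulin receptor, rose by 1.06 (adjusted p = 0.00597), but only 1 of its 3 probe sets had that sign, and the difference was 0.47 after quantile normalization and 0.42 after median centring, both under 2-fold. Igf2, the fetal ligand, was at 464 ± 28.5 units in SLC and 237 ± 79.1 units in RS and did not pass (adjusted p = 0.0559).

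Of the 2 other binding proteins measured, Igfbp6, which prefers IGF2, rose by 3.44 ± 0.50 on the log2 scale in SLC (adjusted p = 0.000118), at 1588 ± 107 units against 157 ± 74.7 units in RS. Igfbpl1 was at the floor on all arrays of both groups. All 5 measured relatives rose. The matricellular proteins Ccn1 and Ccn2 rose 67.1-fold and 60.5-fold, with Ccn2 at 14807 ± 474 units in SLC against 245 ± 17.4 units in RS. Ccn4 and the membrane protein Crim1 were at the floor on all RS arrays, and were at least 72.1-fold and at least 14.2-fold higher in SLC. Ccn5 rose by 1.90 on the log2 scale.

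Of 9 proteases and inhibitors, 7 rose in SLC. Mmp2, a gelatinase that can cut binding proteins, was at 12111 ± 233 units in SLC, against 94.9 ± 33.4 units in RS, 134-fold higher (adjusted p = 3.49e-09). The metalloproteinase inhibitor Timp1 rose 136-fold, to 14507 ± 574 units in SLC against 115 ± 53.3 units in RS. Htra1, a secreted serine protease, rose by 5.22, Adamts1 by 5.21, Mmp14 by 4.60, Htra3 by 2.75 and Stc1, an inhibitor of PAPP-A, by 2.06 on the log2 scale. Htra3 had a second probe set of the other sign. Pappa, the PAPP-A gene, was at 355 ± 55.7 units in SLC and 444 ± 48.7 units in RS, with overlapping groups.

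In the signal relay, 17 of 32 genes rose in SLC and 0 fell with the deposited scaling. After median centring, Pdpk1 at -1.36, Gsk3b at -1.36, Mtor at -1.27 and Pik3r3 at -1.03 were lower in SLC beyond 2-fold, and were named after these values were seen. With the deposited scaling, 1 of the 2 probe sets of Pdpk1 and 3 of the 6 of Gsk3b were lower in SLC. The largest differences among those called were of Ptpn11, the phosphatase SHP2, at 3.78, the receptor-binding adaptor Grb14 at 3.67, Socs3, an inhibitor of cytokine signalling, at 3.65, Pik3r1, the regulatory subunit of PI3K, at 3.61, and Grb10, an imprinted inhibitor of the receptor, at 2.48. Grb14 was at the floor on 2 RS arrays, and 2 of the 3 probe sets of Grb10 had this sign. The part of the fibroblast, myoid and Leydig cell markers in these differences of the IGF system was not tested.

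In PGCLC against PGC, 16 of the 52 genes rose and 0 fell, beside 10.4% and 1.62% of all genes, with a median of 0.50 against 0.01 over all genes. The counts were 14 and 0 after quantile normalization, 14 and 3 after median centring, and 19 and 2 without PGCLC replicate 2. Fitted on these 2 groups alone, only 3 of the 16 were called, and which they were is not given here. The SE and adjusted p below come from the spread pooled over all groups, although PGCLC was the most uneven group. Igf2 read 13732, 3251 and 10664 units on PGCLC arrays, against 1147 ± 54.9 units in PGC, so its 3 PGCLC arrays stood in the order seen for Igfbp2. Its log2 difference was 2.77 ± 0.43 (SE; limma adjusted p = 0.00209), and Insr rose by 1.38 (adjusted p = 0.00587). Neither other binding protein passed, Igfbp6 having the larger difference at 1.27 (adjusted p = 0.0768).

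Of the relatives, 4 of 5 rose in PGCLC. Ccn1 rose by 2.43, Ccn2 by 2.49, Crim1 by 1.25 and Ccn4 by 1.01 on the log2 scale. After quantile normalization Crim1 was at 0.93 and Ccn4 at 0.67, and after median centring Ccn4 was at 0.78, all under 2-fold. Of the proteases and inhibitors, Mmp14 rose by 2.35, Htra1 by 2.10 and Timp1 by 1.92. In the relay 7 of 32 rose. Socs3 showed the largest difference, at 4269, 860 and 3791 units on PGCLC arrays against 82.5 ± 44.7 units in PGC, a log2 difference of 5.02 (adjusted p = 0.000394). Grb10 followed at 2.39, the insulin receptor substrates Irs1 and Irs2 at 2.07 and 1.85, and the docking protein Gab1 at 1.87.

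**Figure D4:**
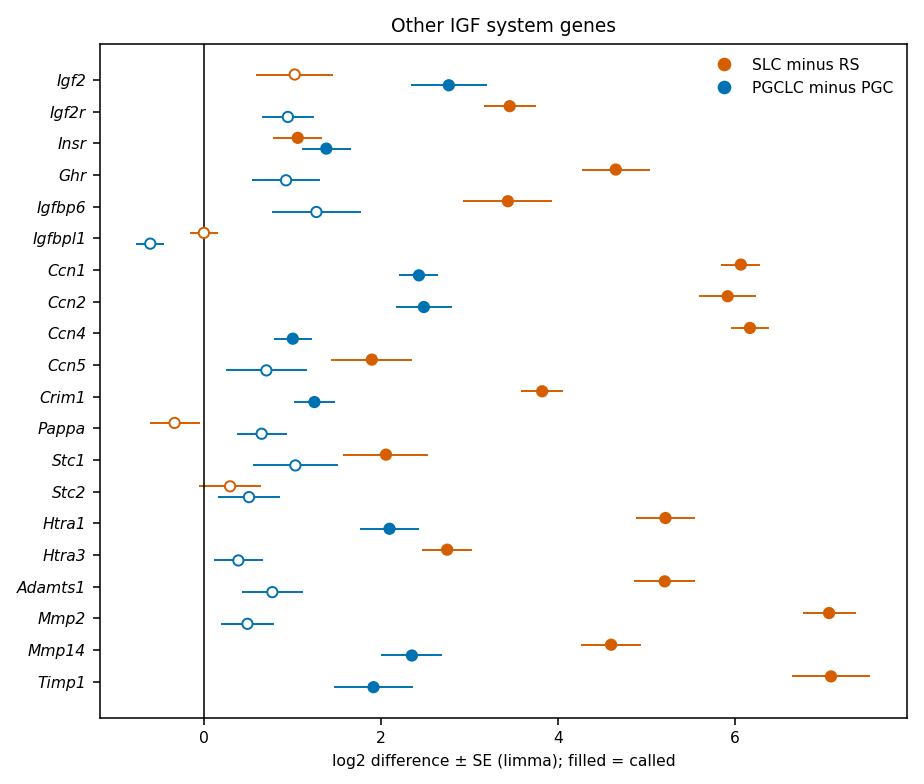
Log2 difference with its SE from limma for the measured IGF system genes outside the relay, for SLC minus RS and PGCLC minus PGC, with filled points for called genes. Timp1, Mmp2, Ccn4, Ccn1 and Ccn2 lie furthest to the right for SLC minus RS, and no called gene lies below 0 in either comparison.

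In RS against PGC, the native cells, 5 of the 52 genes rose and 30 fell, beside 31.8% and 37.7% of all genes, and 8 rose and 25 fell after median centring. Igf2r fell by 3.82 (adjusted p = 1.2e-07), to 145 ± 54.8 units in RS against 1945 ± 299 units in PGC. Igf2 fell by 2.33 and Ghr by 2.12, the second with 2 of its 3 probe sets in that direction. Igfbpl1, at 491 ± 27.7 units in PGC, was at the floor on all RS arrays, at least 15.95-fold lower in RS. Pappa rose by 3.77 (adjusted p = 9.08e-08), to 444 ± 48.7 units in RS against 15.6 ± 17.5 units in PGC, though its other probe set had the opposite sign.

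Ccn1 fell by 2.47, Mmp2 by 2.09, Adamts1 by 1.91 and Timp1 by 1.26 in RS. Timp1 was at -0.93 after quantile normalization and -0.81 after median centring, both under 2-fold. Crim1 and Ccn4 were at the floor on all RS arrays, and fell at least 3.96-fold and at least 3.15-fold, Crim1 with 1 of its 2 probe sets. Ccn5 rose by 1.24 (adjusted p = 0.0247), but it lay at the floor on the PGC arrays and the groups overlapped. In the relay 3 of 32 rose and 20 fell. Socs2, an inhibitor of growth hormone signalling, fell 44.7-fold, to 157 ± 20.8 units in RS against 7003 ± 254 units in PGC. Grb14 fell by 4.60, Ptpn11 by 4.19 and the PI3K catalytic subunit Pik3cb by 4.09, while Pdpk1, the kinase that activates AKT, rose by 4.32. Gsk3b, named for its probe sets, rose by 2.73, with 1 of its 6 probe sets in that direction.

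In SLC against PGCLC, the cultured cells, 17 of the 52 genes rose and 16 fell, beside 29.9% and 27.4% of all genes. Igf2 fell by 4.07 (adjusted p = 3.5e-06), to 464 ± 28.5 units in SLC against 9216 ± 5389 units in PGCLC, and Igf2r fell by 1.31. Ghr rose by 1.60 and Igfbp6 by 3.03, and Igfbpl1 was at the floor on all SLC arrays, at least 10.5-fold lower in SLC. Of the relatives, Ccn4 rose by 3.51, Ccn2 by 2.47, Ccn5 by 2.43 and Ccn1 by 1.17, the last with 2 of its 4 probe sets in that direction.

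Of the 9 proteases and inhibitors, 7 rose in SLC against PGCLC and 0 fell. Mmp2 rose by 4.49, Timp1 by 3.91, Pappa by 2.79, Htra1 by 2.71, Adamts1 by 2.52, Mmp14 by 1.76 and Htra3 by 1.56. In the relay 4 of 32 rose and 13 fell, led by Pik3cb at -3.49, Gab1 at -2.70, Socs2 at -2.56 and Rictor, a component of mTOR complex 2, at -2.24. Pdpk1 was among those that rose, by 2.45, with 1 of its 2 probe sets in that direction. So was Gsk3b, named for its probe sets, by 1.79, with 2 of its 6 in that direction.

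Whether the step from native to cultured cells differed between the 2 stages was tested as an interaction, SLC minus RS less PGCLC minus PGC. Of the 52 genes, 27 were called higher and 3 lower, beside 21.1% and 11.2% of all genes, and 24 higher and 6 lower after median centring. The largest values were of Mmp2 at 6.57, Ccn4 at 5.17 and Timp1 at 5.17, and Igf2 was the one gene of the ligand and receptor list called lower, at -1.74 (adjusted p = 0.0346). For the 7 genes themselves the interaction is a description, at 6.61 for Igfbp5, 5.84 for Igfbp7, 2.96 for Igf1, 2.71 for Igfbp3, 2.49 for Igfbp4, 2.21 for Igf1r and -3.12 for Igfbp2. Igfbp2 was the one member whose excess over its native counterpart was larger in PGCLC than in SLC.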

How the data were processed

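The values deposited by the authors were linear intensity units, 1 for each probe set and array, and per the submitters' processing notes the tool was MAS5, with no version, detection call or background setting given in the sources used here. Each array's 2% trimmed mean was 500.002 to 500.004, so the arrays had been scaled to a common level, and this scaling was kept. Of 45101 probe sets, 64 controls, 932 with several symbols and 9160 with none were left out, and 34741 symbols were checked by Entrez identifier. Values below the 25th percentile (30.7) were raised to it before taking log2. A probe set was kept if above the median of the table (92.0) on at least 3 of the 12 arrays, whatever their group, which kept 24949, and the brightest of them by mean over all arrays stood for its gene, which left 14197 genes, 6293 of them with more than 1 to choose from.

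Groups and replicate numbers came from the sample titles. All 12 arrays entered 1 limma fit (limma 3.58.1, R 4.3.3; lmFit and eBayes with an intensity trend), tested on simulated data, with Benjamini-Hochberg adjustment over all genes. Calls needed an adjusted p under 0.05 and a change of at least 2-fold. The spread of the PGCLC arrays enters every SE. "At least" marks folds against a group at the floor on all its arrays. Same-numbered arrays of different groups correlated at -0.02 to 0.13 in their deviations from group means, so the numbers were not taken as pairs. The number of arrays limits the precision.

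The members and the lists were chosen with earlier results of these data known. Named were the 7 members, each called gene of the lists outside the relay, the 5 called relay genes with the largest change, the gene of largest change in a list with none called, and the 3 genes nearest each member. Landmark and marker genes were named beside results. Promoter windows and gene positions are from RefSeq on GRCm38.p6. In all, 23 alternatives were run, counting each array left out.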

Additional observations from a re-analysis of the deposited data

Results flagged for a closer look

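Of the 30 genes of the IGF system outside the members that were called for the limma interaction, 19 that the naming rule selects are given here. Their difference between cultured and native cells was not the same at the spermatid and the PGC stage (SLC minus RS less PGCLC minus PGC, on the log2 scale). Among ligands, receptors and binding proteins the values were 3.73 for Ghr (adjusted p = 0.000224), 2.51 for Igf2r (adjusted p = 0.000561), 2.16 for Igfbp6 (adjusted p = 0.0264) and -1.74 for Igf2 (adjusted p = 0.0346). Among relatives they were 5.17 for Ccn4, 3.64 for Ccn1, 3.43 for Ccn2 and 2.57 for Crim1. Among proteases and their inhibitors they were 6.57 for Mmp2, 5.17 for Timp1, 4.43 for Adamts1, 3.12 for Htra1, 2.36 for Htra3 and 2.25 for Mmp14. In the signal relay they were 4.90 for Grb14, 3.69 for Ptpn11, 2.92 for Socs2, 2.63 for Foxo1 and 2.29 for Pik3r1. The adjusted p of the genes listed without one lay at or under that of Pik3r1, 0.0079.

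For 3 members the step from the PGC stage to the spermatid stage ran in opposite directions in culture and in native cells. Every SLC array lay above every PGCLC array, while every RS array lay below every PGC array, for the brightest probe sets of Igfbp4, Igfbp5 and Igfbp7. RS minus PGC less SLC minus PGCLC was -2.49 for Igfbp4, -6.61 for Igfbp5 and -5.84 for Igfbp7 on the log2 scale. These differences were not tested, since the genes were selected on these signals, and the RS minus PGC sign of Igfbp7 turned after median centring. The second probe set of Igfbp5 placed RS above PGC by 0.50, with overlapping groups. RS minus PGC was under 2-fold and not called for Igfbp4, at -0.92, and for Igfbp7, at -0.43. Dimmer probe sets had overlapping RS and PGC arrays, at -0.26 and -0.29 for Igfbp4 and at -0.06 and -0.22 for Igfbp7. The share of all genes with this pattern is not given here, so nothing is read from the count of members.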

How the results depend on the processing

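Of the 52 IGF system genes outside the members, the count called kept within 1.5 times its value under all alternatives run except 1. For PGCLC minus PGC, a fit of the 2 groups alone called 3 genes where the fit of all 12 arrays called 16. Fits of 2 groups used 6 arrays to estimate the spread in every comparison. Over all genes they gave 3401 higher and 493 lower for SLC minus RS, against 3401 and 488 with all 12 arrays. For RS minus PGC they gave 4529 and 5354, against 4517 and 5348. Why PGCLC minus PGC lost more calls was not tested. With each array left out in turn, the counts of IGF system genes ran from 32 to 34 for SLC minus RS, 14 to 21 for PGCLC minus PGC, 33 to 35 for RS minus PGC, 32 to 34 for SLC minus PGCLC and 28 to 32 for the interaction. The fit with a replicate block called 33, 16, 35, 33 and 30 in that order and changed no call. Over all genes, PGCLC minus PGC depended on single arrays, with 1470 higher and 230 lower in all, 943 and 60 without PGCLC replicate 1, 2083 and 755 without PGCLC replicate 2, 914 and 94 without PGCLC replicate 3, 98 to 112 lower without a PGC array, and 170 and 7 with the 2 groups alone. It gave 1404 and 151 with no filter, 1070 and 384 after quantile normalization and 1088 and 662 after median centring. SLC minus RS gave 3401 and 488 with the deposited scaling, 2804 and 2259 after quantile normalization and 2353 and 5843 after median centring, and the interaction 3001 and 1584, against 2210 and 3706 after median centring, where 37.4% of calls were higher, against 65.5% (55.1% after quantile normalization). Of 560 values for the members, 520 moved by less than the spread between replicates and 40 by more. Of 28 member differences, 4 changed sign under an alternative, all of them under 2-fold, and each is given with its gene. The signal over background of each probe set is unknown, so values near the floor, as of Igfbp3 and Igfbp5 in RS, cannot be called detected or not.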
